A study of Mus musculus with 6 samples.

Results

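The 10 genes of extracellular nucleotide signalling described here are the ATP-gated channels P2rx4 and P2rx7, the nucleotide receptors P2ry2, P2ry6, P2ry12 and P2ry14, the adenosine receptors Adora2a and Adora2b, and the ectonucleotidases Entpd1 and Nt5e. They were chosen by name, with earlier results of these data known. All 10 were found among the 55401 genes of the deposited count table through GENCODE M21 symbols. RNA was sequenced from RAW264.7 cells, a wild-type mouse macrophage-like line transformed by Abelson virus, after MoS2 (molybdenum disulfide) at 6.25 µg/ml in 3 libraries or PBS (phosphate-buffered saline) in 3 libraries. All 6 libraries came from this single line, and how long the cells were treated is not stated in the labels. The labels do not call the replicates separate cultures. What the p-values set a difference against is therefore the variation among these 3 and 3 samples, possibly technical only. The title of the series concerns MoS2 and the tumour microenvironment, and the comparison asks how these macrophages differ between MoS2 and PBS.

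Damaged or stressed cells release ATP and UTP, which macrophages sense through P2X channels, which let cations through, and P2Y receptors, which signal through G proteins. On the cell surface CD39, the product of Entpd1, takes ATP and ADP down to AMP, and CD73, the product of Nt5e, turns AMP into adenosine. Adenosine acts through the receptors of Adora2a and Adora2b, which raise cAMP and are known to dampen inflammatory signalling in macrophages, while P2X7 is the classical ATP trigger of the NLRP3 inflammasome.

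Total counts were 15767618 to 18412762 in MoS2 libraries and 17008020 to 17695883 in PBS libraries. The 10 most abundant genes of each library took 18.9% to 19.6% of the counts with MoS2 and 5.25% to 5.64% with PBS. Levels are CPM, the usual depth-normalised read count, scaled with TMM factors, which discount such dominant genes, and RPKM is the same level per kilobase of exon. Scaling by library totals alone lowers each log2 fold change by a median of 0.77 over the tested genes (a shift of -0.77), so a gene lower with MoS2 is lower still under library totals. Library-total values are given for the tested members among the 10 genes and for each named gene of the pathway lists that rose. Of 9 macrophage markers 8 were detected well enough to be tested, Mertk being the exception with 2 counts in each group, and they did not move together. Cd68 and Itgam rose (1.09 and 1.47 on the log2 scale), Csf1r, Lyz2, Fcgr1 and Spi1 fell (-1.90, -0.87, -1.06 and -0.42), and Adgre1 and Cd14 were not called by edgeR. Their summed level, with Lyz2 as its largest part, was 4908 to 5188 CPM with MoS2 and 7376 to 7587 CPM with PBS. Of 41 markers of 11 other cell classes, 14 had no count in any library and 2 were tested. The dendritic cell marker Zbtb46 was called lower, with 23 counts with MoS2 and 178 with PBS, and the platelet marker Itga2b higher, with 84 counts with MoS2 and 42 with PBS. The summed level of the 41 was 5.03 to 6.51 CPM with MoS2 and 4.08 to 7.19 CPM with PBS. In bulk RNA, fewer cells expressing a gene and less of its RNA per cell cannot be told apart.

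Promoter sequence is shown for P2rx7 and P2rx4, neighbours whose levels differed unequally between the groups, for P2ry2, which was also lower with MoS2, and for Entpd1, the member that was higher. Each window runs from 250 bases before to 50 bases after a RefSeq transcription start on GRCm38.p6, and windows were found for 8 of the 10 genes, not for P2ry6 and Adora2a. P2rx7 (chr5:122643677-122643976, plus strand), P2rx4 (chr5:122707294-122707593, plus strand), P2ry2 (chr7:101012004-101012303, minus strand) and Entpd1 (chr19:40612116-40612415, plus strand) read as follows, with motif matches in capitals.
P2rx7: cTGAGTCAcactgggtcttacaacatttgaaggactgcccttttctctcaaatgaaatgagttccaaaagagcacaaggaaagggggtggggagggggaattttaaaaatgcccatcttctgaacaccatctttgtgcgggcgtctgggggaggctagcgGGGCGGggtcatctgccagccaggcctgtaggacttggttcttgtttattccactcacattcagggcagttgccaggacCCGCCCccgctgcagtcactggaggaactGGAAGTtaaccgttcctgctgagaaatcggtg
P2rx4: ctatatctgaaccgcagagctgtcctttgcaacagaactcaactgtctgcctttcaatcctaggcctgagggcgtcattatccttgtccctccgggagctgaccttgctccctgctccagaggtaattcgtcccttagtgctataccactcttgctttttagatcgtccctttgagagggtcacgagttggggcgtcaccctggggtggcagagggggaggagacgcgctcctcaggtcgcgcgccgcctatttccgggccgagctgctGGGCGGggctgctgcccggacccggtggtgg
P2ry2: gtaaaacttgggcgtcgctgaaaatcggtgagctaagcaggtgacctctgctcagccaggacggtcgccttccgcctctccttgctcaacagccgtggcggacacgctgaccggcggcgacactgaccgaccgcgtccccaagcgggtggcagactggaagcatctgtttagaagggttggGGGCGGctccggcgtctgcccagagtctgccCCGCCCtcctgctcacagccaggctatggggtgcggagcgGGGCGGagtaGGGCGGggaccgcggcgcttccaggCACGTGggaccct
Entpd1: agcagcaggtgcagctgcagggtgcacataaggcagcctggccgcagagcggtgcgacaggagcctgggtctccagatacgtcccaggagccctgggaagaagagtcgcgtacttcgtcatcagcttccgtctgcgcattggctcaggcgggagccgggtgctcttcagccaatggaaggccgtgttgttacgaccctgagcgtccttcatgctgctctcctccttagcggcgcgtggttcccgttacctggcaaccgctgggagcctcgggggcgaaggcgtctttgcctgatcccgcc

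The motifs searched on both strands were a GC box (GGGCGG), an AP-1 site (TGANTCA), an ETS-type site (GGAAGT), an E-box (CACGTG), a cAMP response element (TGACGTCA) and an NF-kB site (GGGA, any base, then TTTCC). None of the matches in these windows overlapped another. The P2rx7 window held an AP-1 match at its far end, a GC box on each strand and an ETS-type match just after the start site, the P2rx4 window a single GC box after the start site, and the P2ry2 window 4 GC boxes and an E-box. Neither of the Entpd1 windows held a match. Of all 32851 promoter windows in the table, 35.7% held a GC box, 7.81% an AP-1 site, 23.8% an ETS-type site, 7.15% an E-box, 1.79% a cAMP response element and 0.411% an NF-kB site. No window of any of the 8 genes held a cAMP response element or an NF-kB site in these letters. A match is a description of the sequence, and binding was not measured.

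Of the 10 genes, the nucleotide receptors P2rx7, P2ry6, P2ry2 and P2rx4 fell with MoS2, and Entpd1 rose. Neither adenosine receptor passed the test, and P2ry12, P2ry14 and Nt5e had too few reads to be tested. Of the 7 genes tested, edgeR's quasi-likelihood test therefore called 4 lower and 1 higher at an adjusted p under 0.05, and the groups did not overlap for these 5. Among all 12972 tested genes 42.4% were called lower and 38.3% higher, or 80.7% in either direction, so calls on 5 of 7 genes are no more frequent than in the transcriptome at large. Groups did not overlap for 81.9% of all tested genes, with MoS2 below for 43.1% and above for 38.8%. With library totals 85.7% of all tested genes were called, 18% higher and 67.7% lower, and of the 10 genes the same 4 receptors and Adora2b were lower and none higher. With each library's trend on gene length removed, an alternative chosen after seeing the data, 80.2% were called, 43.7% higher and 36.6% lower, and of the 10 genes Entpd1 was higher and the same 5 were lower. The 7 tested genes had a median log2 fold change of -0.83, against -0.08 over all tested genes, whose middle 50% ran between -0.95 and 0.75. This median is the value of Adora2b, which was not called and passed the filter on low counts only through the PBS libraries. It is therefore no support for a fall of the 7 genes as a set. The filter let these 7 pass, and the median says nothing of the other 3.

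**Figure D1:**
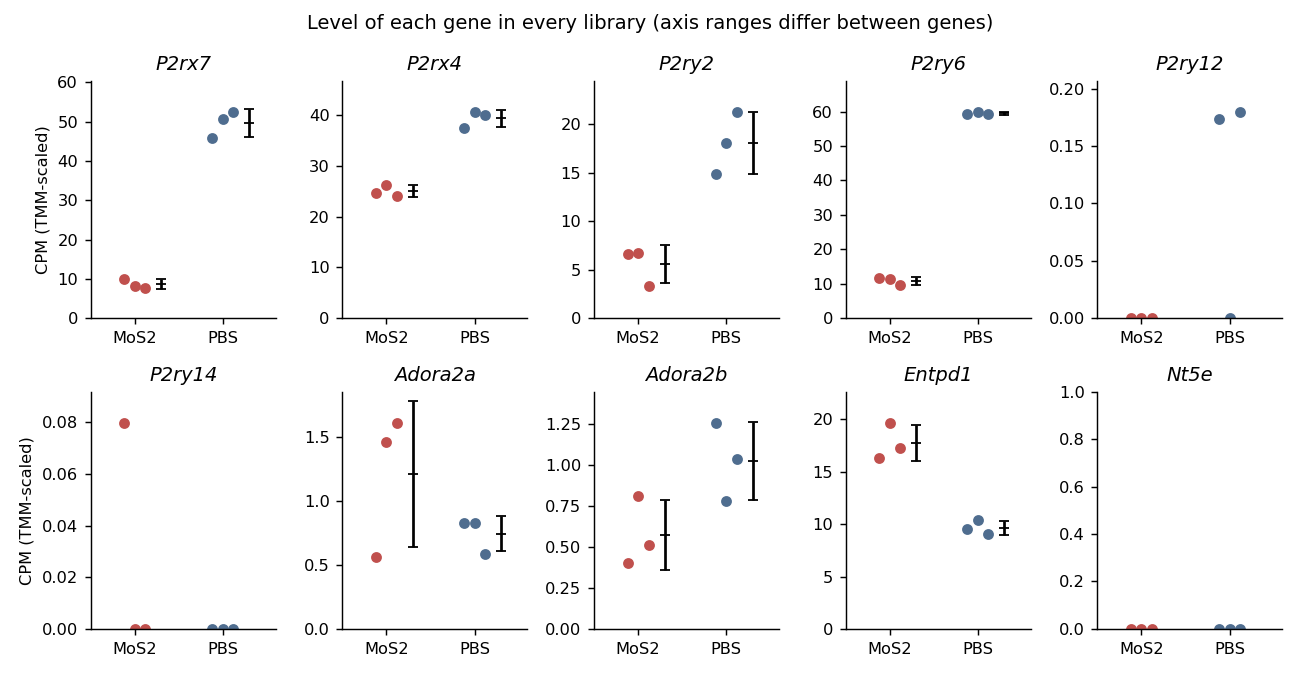
Level of each of the 10 genes (vertical axis, TMM-scaled CPM, from 0, with a range of its own per gene) in the MoS2 and PBS libraries; points are libraries, and dashes with bars are the mean ± SD over 3 libraries, drawn for the 7 tested genes. P2rx7, P2rx4, P2ry2 and P2ry6 are lower in every MoS2 library than in any PBS library, Entpd1 is higher, the adenosine receptors overlap, and Nt5e is at 0 in all 6.

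P2rx7 (ENSMUSG00000029468.17, GRCm38 chromosome 5, 122643911 to 122691432, plus strand) encodes the channel that opens at high ATP and lets potassium leave the cell. It had 10.1, 8.19 and 7.75 CPM in the MoS2 libraries, against 45.7, 50.7 and 52.5 CPM in the PBS libraries. Every MoS2 library lay far below every PBS library, and the libraries within a group lay close together. The level was 5.73-fold lower with MoS2, or -2.52 ± 0.11 on the log2 scale (± SE, with an adjusted p of 1.1e-10 by edgeR), and 5.65% of all tested genes had a lower one. With library totals it was -3.29. A miRNA gene without counts, Mir8115, overlaps 119 bases of its exons.

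P2rx4 (ENSMUSG00000029470.15, GRCm38 chromosome 5, 122707544 to 122729738, plus strand) lies 16111 bases downstream of P2rx7 on the same strand and encodes a channel that responds to lower ATP and resides largely in lysosomes. Its levels were 24.7, 26.3 and 24.1 CPM in the MoS2 libraries and 37.4, 40.6 and 40.1 CPM in the PBS libraries. The groups were apart, by a smaller distance than for P2rx7. The log2 fold change was -0.66 ± 0.08 (edgeR adjusted p = 5.4e-06), or 1.57-fold lower with MoS2, and 32.3% of tested genes had a lower one. It was -1.43 with library totals. It was -0.31 (edgeR adjusted p = 0.00181) after the trend on gene length was removed. Long genes tended to lower log2 fold changes across all tested genes, with a Spearman rho of -0.23 over genes that are not independent, and P2rx4 has 7025 exonic bases against a median of 4072.

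The levels of the neighbours P2rx7 and P2rx4 can also be compared within each library, where scaling cancels out. Counts of P2rx7 per count of P2rx4 were 0.408, 0.312 and 0.322 in the MoS2 libraries and 1.22, 1.25 and 1.31 in the PBS libraries. P2rx7 thus had fewer reads than P2rx4 in each MoS2 library and more in each PBS library. The mean log2 ratio was -1.53 ± 0.21 with MoS2 and 0.33 ± 0.05 with PBS (SD, n = 3 each), a difference of -1.87 (exact two-sided permutation p = 0.1, the smallest that 3 against 3 libraries can give, and adjusted p = 0.25 over 5 pairs of genes).

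P2ry6 (ENSMUSG00000048779.5, GRCm38 chromosome 7, 100937630 to 100974649, minus strand), the Gq-coupled receptor for UDP that drives phagocytosis in microglia, was the most abundant of the 10 genes with PBS. It had 11.6, 11.3 and 9.51 CPM in the MoS2 libraries, against 59.2, 59.9 and 59.3 CPM in the PBS libraries. The PBS libraries were nearly equal, and all MoS2 libraries lay far below them. The log2 fold change was -2.46 ± 0.09 (edgeR adjusted p = 2.8e-11), or 5.51-fold lower, with 6.02% of tested genes lower still. With library totals it was -3.23.

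P2ry2 (ENSMUSG00000032860.5, GRCm38 chromosome 7, 100996568 to 101012866, minus strand) is the neighbour of P2ry6, with 21918 bases and no annotated gene between them, and encodes the receptor for ATP and UTP by which phagocytes follow find-me signals of dying cells. Its levels were 6.63, 6.73 and 3.29 CPM in the MoS2 libraries and 14.9, 18.0 and 21.3 CPM in the PBS libraries. Relative to their means both groups spread more widely than for P2rx4, P2rx7 and P2ry6, with MoS2 replicate 3 low, yet they did not overlap. The log2 fold change was -1.71 ± 0.21 (edgeR adjusted p = 4.7e-06), or 3.27-fold lower, and ran from -1.87 to -1.43 when single libraries were left out. With library totals it was -2.48. Counts of P2ry2 per count of P2ry6 were 0.572, 0.593 and 0.346 with MoS2 and 0.251, 0.301 and 0.359 with PBS. These ratios overlapped, and their log2 values differed by 0.71 (exact two-sided permutation p = 0.2, adjusted p = 0.333 over 5 pairs). With 3 against 3 libraries this test gives no p under 0.1, so it cannot decide whether both genes changed unequally.

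The Gi-coupled members were at or near 0. P2ry12 (ENSMUSG00000036353.13, GRCm38 chromosome 3, 59216272 to 59262871, minus strand), the ADP receptor of platelets and of microglia, had no count in any MoS2 library and 4, 0 and 4 counts in the PBS libraries. PBS replicate 2 was thus at 0 like the MoS2 libraries, and no difference can be read from so few counts. P2ry14 (ENSMUSG00000036381.13, GRCm38 chromosome 3, 59113855 to 59153618, minus strand), the receptor for UDP-glucose, had 1 count in MoS2 replicate 1 and none elsewhere. The microglial markers Sall1, Siglech and Tmem119 were also low: Sall1 had no count, Siglech 0 counts with MoS2 and 26 with PBS, and Tmem119 3 with MoS2 and 37 with PBS.

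Adora2a (ENSMUSG00000020178.6, GRCm38 chromosome 10, 75316877 to 75334784, plus strand), which encodes the high-affinity adenosine receptor of this pair, had 7, 18 and 22 counts in the MoS2 libraries and 19, 19 and 13 counts in the PBS libraries. These were 0.559, 1.46 and 1.61 CPM with MoS2 and 0.824, 0.825 and 0.584 CPM with PBS. MoS2 replicate 1 lay below every PBS library and the other MoS2 libraries above them. The log2 fold change was 0.70 ± 0.42 and not called (edgeR adjusted p = 0.138). It was called without MoS2 replicate 1 (1.04, edgeR adjusted p = 0.0344) and became -0.069 with library totals (edgeR adjusted p = 0.879), so no direction can be given.

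Adora2b (ENSMUSG00000018500.2, GRCm38 chromosome 11, 62248984 to 62266453, plus strand), which encodes the low-affinity adenosine receptor, had 5, 10 and 7 counts in the MoS2 libraries and 29, 18 and 23 counts in the PBS libraries. In CPM these were 0.399, 0.811 and 0.512 with MoS2 and 1.26, 0.782 and 1.03 with PBS, where MoS2 replicate 2 lay just above PBS replicate 2. The log2 fold change was -0.83 ± 0.42 and not called (edgeR adjusted p = 0.0826). It was called at -1.60 with library totals (edgeR adjusted p = 0.00276). Counts of Adora2b per count of Adora2a were 0.714, 0.556 and 0.318 with MoS2 and 1.53, 0.947 and 1.77 with PBS, without overlap. The log2 ratio differed by -1.39 (exact two-sided permutation p = 0.1, the smallest possible, adjusted p = 0.25 over 5 pairs). With 22 and 70 Adora2b counts in all, the depth gives a ratio of MoS2 over PBS of 0.557 with an exact 95% counting interval of 0.329 to 0.911. For Adora2a, with 47 and 51 counts, the ratio was 1.63 and the interval 1.08 to 2.48. These intervals cover counting error and not the spread between libraries, and edgeR called neither gene.

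Entpd1 (ENSMUSG00000048120.16, GRCm38 chromosome 19, 40612366 to 40741602, plus strand), the gene of CD39, had 16.3, 19.7 and 17.3 CPM in the MoS2 libraries and 9.50, 10.4 and 9.08 CPM in the PBS libraries. All MoS2 libraries lay above all PBS libraries. The log2 fold change was 0.88 ± 0.12 (edgeR adjusted p = 1.2e-05), or 1.84-fold higher, and 77.9% of tested genes had a lower one. With library totals it was 0.11 and not called (edgeR adjusted p = 0.427), since the raw counts were close, at 204, 243 and 236 with MoS2 and 219, 239 and 202 with PBS. With the gene length trend removed it was 1.20. With RLE and upper-quartile factors it was 0.92 and 0.75 and called, so of the scalings run only library totals ended the call.

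Nt5e (ENSMUSG00000032420.8, GRCm38 chromosome 9, 88327197 to 88372092, plus strand), the gene of CD73, had no count in any of the 6 libraries. A count of 0 allows up to 3 counts, or 0.0779 CPM over the MoS2 group and 0.0439 CPM over the PBS group. The CD73 transcript was thus not detected at this depth in either group.

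**Figure D2:**
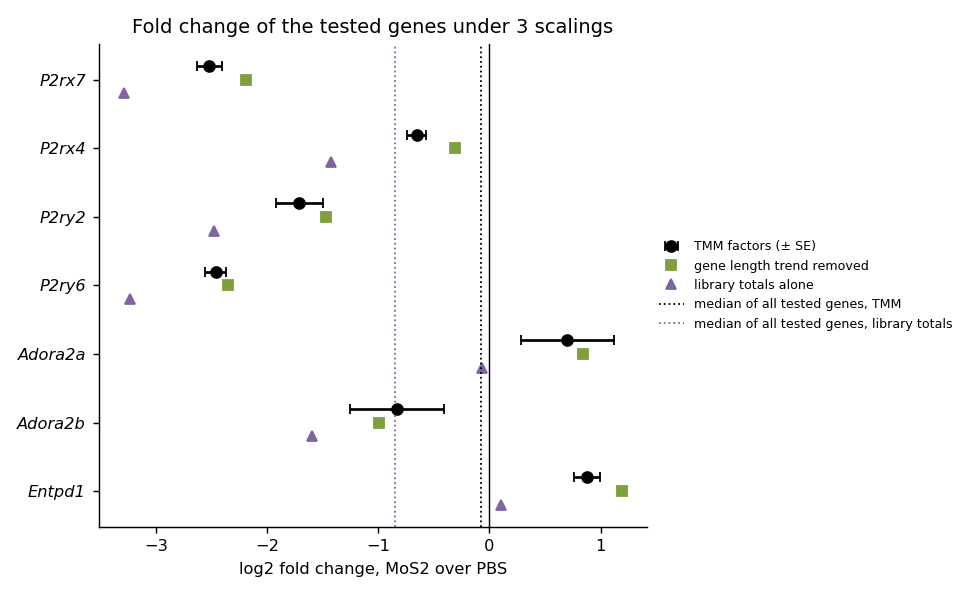
Log2 fold change of MoS2 over PBS (horizontal axis) for the 7 tested genes with TMM factors (circles, bars are ± SE), with the gene length trend removed (squares) and with library totals alone (triangles); dotted lines are the medians of all tested genes. P2rx7, P2ry6, P2ry2 and P2rx4 lie left of 0 under all 3, while Entpd1 lies at 0.88 with TMM factors and at 0.11 with library totals.

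Per kilobase of exon, the order of the genes differed between the groups. With MoS2, P2ry6, P2rx4 and Entpd1 led at 3.74 ± 0.393, 3.56 ± 0.161 and 3.18 ± 0.314 RPKM (SD, n = 3), and neighbours in this order overlapped. P2rx7 at 1.45 ± 0.206 and P2ry2 at 1.41 ± 0.498 RPKM followed, also overlapping, and then Adora2a at 0.395 ± 0.185 and Adora2b at 0.311 ± 0.115 RPKM. With PBS, P2ry6 led at 20.6 ± 0.134 RPKM, ahead of P2rx7 at 8.31 ± 0.585 and P2rx4 at 5.60 ± 0.247 RPKM. P2ry2 at 4.6 ± 0.813 RPKM overlapped P2rx4, and Entpd1 at 1.73 ± 0.119, Adora2b at 0.555 ± 0.129 and Adora2a at 0.243 ± 0.0453 RPKM came below without overlap.

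The make-up of the 10 genes differed, with more of the reads on the CD39 gene with MoS2 and fewer on P2ry6 and P2rx7. Shares do not depend on library scaling, but they sum to 100%, so a share can be higher because other genes are lower. As a share of the reads per base summed over all 10 genes, Entpd1 took 20.5%, 23.2% and 24.3% in the MoS2 libraries and 4.26%, 4.41% and 3.79% in the PBS libraries. P2ry6 took 26.6% ± 1.36 with MoS2 and 49.4% ± 1.71 with PBS, and P2rx7 took 10.4% ± 1.42 with MoS2 and 19.9% ± 0.693 with PBS (SD, n = 3 each). P2rx4, whose own level was lower with MoS2, took 25.4% ± 1.28 with MoS2 and 13.4% ± 0.235 with PBS. The P2ry2 share overlapped between the groups, at 9.90% ± 2.90 with MoS2 and 11% ± 1.58 with PBS. Summed over the 6 P2 receptors, the level was 10.2 ± 1.14 RPKM with MoS2 and 39.2 ± 1.63 RPKM with PBS.

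**Figure D3:**
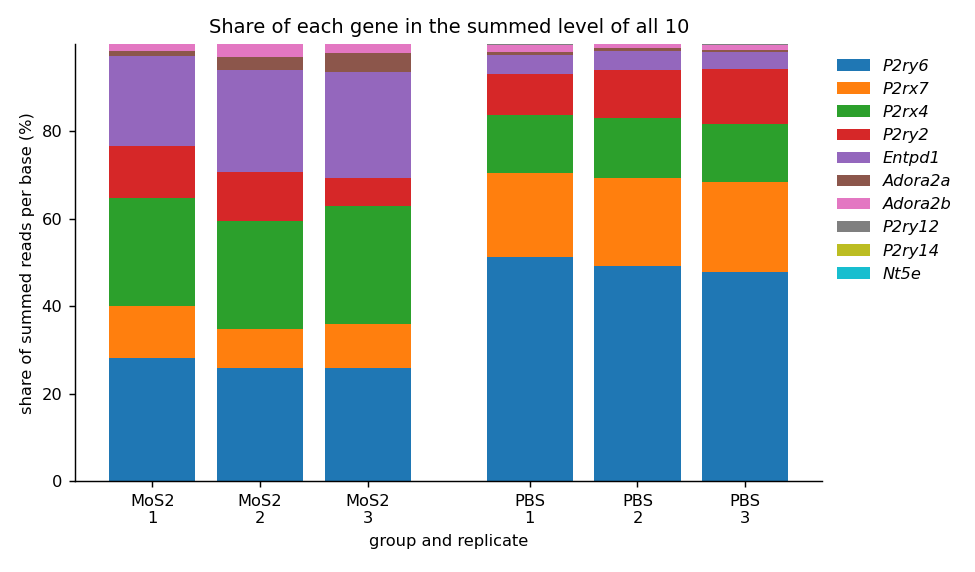
Share of each of the 10 genes in their summed reads per exonic base (vertical axis, percent) in each MoS2 and PBS library. Entpd1 takes 20.5% to 24.3% of the MoS2 bars and 3.79% to 4.41% of the PBS bars, while the P2ry6 share is 26.6% on average with MoS2 and 49.4% with PBS.

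**Figure D4:**
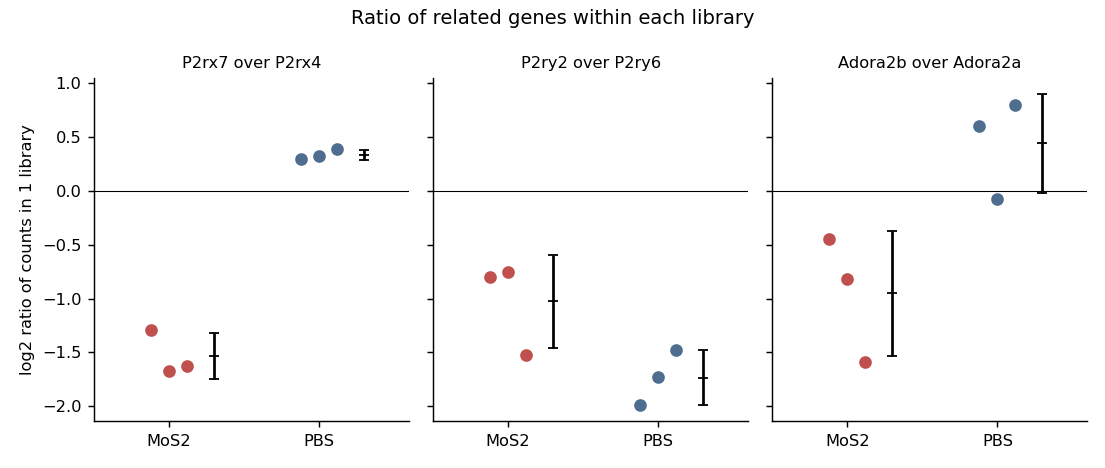
Log2 ratio of the counts of 2 related genes in the same library (vertical axis) for MoS2 and PBS; points are libraries, and dashes with bars are the mean ± SD over 3 libraries. P2rx7 over P2rx4 and Adora2b over Adora2a are lower in every MoS2 library than in any PBS library, and P2ry2 over P2ry6 overlaps.

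The rest of the pathway was counted in 7 lists of genes, also chosen with earlier results of these data known. Panx1 stands in both the ATP release list and that of P2X7 partners. Of all tested genes 38.3% were called higher and 42.4% lower, or 18% and 67.7% with library totals. The counts of a list were not tested against these shares. Some counted calls are of genes that passed the filter on low counts only through the group where they were higher. Such calls are no support for a change of a list. The 13 genes listed as other nucleotide and adenosine receptors were mostly silent: 3 could be tested, 2 fell and 1 rose, and under library totals 3 fell. P2rx6, a P2X subunit, had 1 count with MoS2 and 46 with PBS, a ratio of 0.0386 (counting interval 0.000956 to 0.226). The A3 adenosine receptor gene Adora3 had -1.68 ± 0.57 on the log2 scale from 9 counts with MoS2 and 52 with PBS (edgeR adjusted p = 0.0143). Both genes passed the filter on low counts only through the PBS libraries, so their 2 calls are no support for a fall of the list. The Adora3 call was lost without MoS2 replicate 1, MoS2 replicate 2 or PBS replicate 3, with edgeR adjusted p-values of 0.0614, 0.0594 and 0.0627. P2ry10b, listed for its P2Y name and not an established nucleotide receptor, had 29.9 CPM with MoS2 and 23.7 CPM with PBS. It rose by 0.34 ± 0.10 (edgeR adjusted p = 0.00811) and had -0.44 with library totals. Without MoS2 replicate 1 it had 0.24 and was not called (edgeR adjusted p = 0.0564).

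Among 17 other ectonucleotidases and phosphatases, 6 were tested, 5 fell and none rose, with a median log2 fold change of -0.68, and with library totals all 6 were lower. Of all tested genes 42.4% fell and 38.3% rose, or 67.7% and 18% with library totals. The calcium-activated nucleotidase Cant1, which cleaves UDP in the secretory pathway, fell to 19.9 CPM with MoS2, against 72.9 CPM with PBS (-1.87 ± 0.08). Entpd7, an intracellular relative of CD39, had 6.43 CPM with MoS2 and 21.5 CPM with PBS (-1.74 ± 0.13). Entpd6 and Entpd5 had log2 fold changes of -0.76 ± 0.10 and -0.61 ± 0.10, or -0.46 and -0.28 with the length trend removed. All 4 passed edgeR's test, with adjusted p-values up to 6.2e-05, so the rise of Entpd1 stood beside falls of its 3 tested relatives. Entpd3, Entpd8, Enpp3 and Cd38 had no count.

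The list headed ATP and nucleotide release, which also holds a mitochondrial channel, included 10 tested genes. Of these 3 rose and 7 fell around a median of -1.32. With library totals 2 rose and 8 fell, against 18% and 67.7% of all tested genes (38.3% and 42.4% with TMM factors). The volume-regulated anion channel subunits Lrrc8b and Lrrc8d had -2.09 ± 0.09 and -1.19 ± 0.06, with 14.8 CPM and 66.6 CPM with MoS2 and 63.0 CPM and 152 CPM with PBS. Calhm2, a channel subunit linked to ATP release, had 1.79 CPM with MoS2 and 15.6 CPM with PBS (-3.13 ± 0.22). The mitochondrial anion channel Vdac1 rose by 1.27 ± 0.06, and by 0.50 with library totals. By edgeR the adjusted p was at most 1.4e-08 for each of them.

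Nucleoside transport and adenosine removal included 12 tested genes, 5 that rose and 6 that fell. With library totals 3 rose and 7 fell, against 18% and 67.7% of all tested genes (38.3% and 42.4% with TMM factors). Adenosine kinase, Adk, which returns adenosine to AMP inside the cell, rose to 89.3 CPM with MoS2, against 37.7 CPM with PBS (1.25 ± 0.07). Purine nucleoside phosphorylase, Pnp, and the mitochondrial adenylate kinase Ak4 rose by 1.59 ± 0.13 and 1.06 ± 0.08. With library totals Adk, Pnp and Ak4 had 0.47, 0.81 and 0.28. The lysosomal nucleoside transporter Slc29a3 fell, with -1.74 ± 0.14. The largest edgeR adjusted p of these 4 was 5.1e-08.

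Among P2X7 partners and genes of the inflammasome below it, 12 were tested, and 5 rose while 6 fell. Under library totals 3 rose and 8 fell, against 18% and 67.7% of all tested genes (38.3% and 42.4% with TMM factors). The inflammasome sensor Nlrp3 and its partner Nek7 had -3.74 ± 0.13 and -1.05 ± 0.08, or -0.70 for Nek7 with the length trend removed. Kcnk6, the potassium channel that works with P2X7 in macrophages, had 14.4 CPM with MoS2 and 35.5 CPM with PBS (-1.30 ± 0.10). Il1b, the cytokine whose release follows P2X7 opening, rose by 5.75 ± 0.46, with 108, 104 and 136 counts in the MoS2 libraries and 10, 0 and 1 in the PBS libraries. With library totals it was 4.99, and without PBS replicate 1, which held most of the PBS counts, it was 8.25. Il1b passed the filter on low counts only through the MoS2 libraries, so its call is no support for a rise of the list. All 4 had an edgeR adjusted p of 4.3e-08 or less.

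Among G proteins and their effectors 21 were tested, and 9 rose while 11 fell. Under library totals 2 rose and 17 fell, against 18% and 67.7% of all tested genes (38.3% and 42.4% with TMM factors). Gnas, the stimulatory subunit by which A2 receptors act, rose to 139.8 CPM with MoS2, against 44.3 CPM with PBS (1.66 ± 0.07). Gnaq, the subunit by which P2Y2 and P2Y6 act, had 61.2 CPM with MoS2 and 156 CPM with PBS (-1.35 ± 0.07). Gna13 rose by 1.65 ± 0.06, and the receptor-desensitizing arrestin Arrb1 had -2.29 ± 0.10. With library totals Gnas and Gna13 had 0.88 each. Each passed edgeR's test, with an adjusted p of 2.8e-10 at most.

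Effectors, brakes and responsive genes of cAMP were split evenly, 7 rising and 7 falling among the 20 tested. Under library totals 3 rose and 15 fell, against 18% and 67.7% of all tested genes (38.3% and 42.4% with TMM factors). The cAMP-degrading phosphodiesterases Pde4a and Pde4b had -1.96 ± 0.10 and -2.23 ± 0.19, and the catalytic kinase subunit Prkacb -0.96 ± 0.07. The AP-1 member Fosl2 rose by 1.16 ± 0.08, and by 0.39 with library totals. With the length trend removed Prkacb had -0.60. Their edgeR adjusted p was no larger than 6.6e-08.

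**Figure D5:**
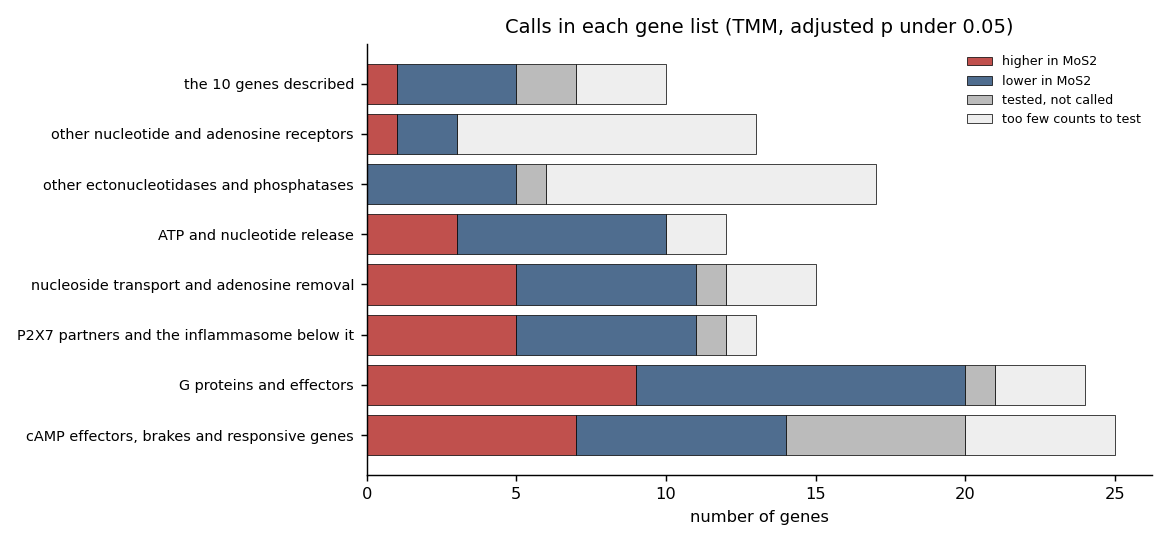
Number of genes (horizontal axis) in each list that were higher in MoS2, lower in MoS2, tested and not called, or too low to be tested, by edgeR with TMM factors. Most genes listed as other nucleotide and adenosine receptors were too low, 10 of 13, and no other ectonucleotidase was called higher. Of all tested genes 38.3% were called higher and 42.4% lower.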

How the data were processed

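The authors deposited raw gene counts, as whole numbers, for 6 libraries. The submitters' processing notes list the tools HISAT2 2.1.0, featureCounts 1.6.1 and fastp 0.20.0. They also list the human build GRCh38. The gene identifiers are those of mouse, and 54349 of 55401 have the version and position they have in GENCODE M21, so coordinates are given as GRCm38. Strand setting and handling of multi-mapping reads are not stated in the labels. Of the 50-base words of the members' transcripts, at most 1.63% (P2rx4) also occur in another gene. Columns were matched to samples by their letter and replicate number.

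Counts were tested with edgeR 4.0.16 (quasi-likelihood F test, TMM factors, treatment as the only term, R 4.3.3) after the default filter of about 10 counts in 3 libraries, which kept 12972 genes, with Benjamini-Hochberg adjustment over all of them. The SE is the size of the log2 fold change over the square root of F and is approximate at low counts. CPM and RPKM were computed here from the counts and the deposited exonic length in bases. Counting intervals are exact 95% intervals and cover counting error only, as do limits of 3 counts. Log2 ratios within a library had 0.5 counts added. The scripts were tested on simulated counts in which few genes changed, as many up as down. That simulation held no difference in dominant genes like the one seen here, so it does not test the choice of scaling. Alternatives were RLE, upper-quartile and no scaling factors, other filters, DESeq2 1.42.0, limma-voom 3.58.1, a replicate term, a stricter threshold and leaving out each library.

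All 10 genes were to be named, as were, per list, the 4 genes lowest in adjusted p, and the 3 protein-coding genes nearest in pattern to the largest rise and the largest fall. The members and lists were chosen with earlier results of these data known, and 184 of 186 list entries matched a gene. Promoters are from RefSeq (GRCm38.p6). No 2 libraries of a group agreed within sampling noise.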

Additional observations from a re-analysis of the deposited data

How the results depend on the processing

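Of 216 alternative values, 204 kept the direction and the side of the threshold of the value reported, or a count within 1.5 times of it. P2rx7, P2ry6, P2ry2 and P2rx4 were called lower under each of the 16 alternatives. With library totals alone, 2334 genes were called higher and 8786 lower, 0 of the 10 genes were called higher, Entpd1 had 0.11, Adora2a had -0.069 and Adora2b had -1.60. Adora2b was also called with upper-quartile factors (-0.96) and with the gene length trend removed (-0.998). Why these values moved beyond the scaling itself was not tested. Leaving out single libraries gave 1 to 2 genes called higher of the 10 (2 without MoS2 replicate 1), 4 lower in each case, a log2 fold change of 0.44 to 1.04 for Adora2a, and a log2 ratio difference of -0.011 to 0.13 for Entpd1 over Nt5e. That ratio (difference 0.05) and the one of P2ry14 over P2ry12 (2.64) rest on the added 0.5 counts, because a gene of each pair is at or near 0. With the replicate block, the same 4 genes were lower and Entpd1 higher (P2rx7 -2.52, Entpd1 0.88). Same-numbered libraries did not deviate together (correlations of -0.02, -0.01 and -0.14), and differently numbered ones had -0.12 to 0.15. With 3 libraries per group these values cannot show whether the libraries were paired, and the labels do not say. Depth limits Adora2a, Adora2b, P2ry12, P2ry14 and Nt5e, which had at most 29 counts in a library.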

Other observations

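The genes whose levels over the 6 libraries were most like the largest rise and the largest fall were found as the smallest Euclidean distances in mean-centred log2(CPM + 0.1). Nearest to Entpd1 were the beta-tubulin gene Tubb4a (distance 0.107), the TNF family cytokine gene Tnfsf15 (0.108) and the desmosomal Pkp2 (0.125), with log2 fold changes of 0.91, 0.95 and 0.86. Nearest to P2rx7 were the kinase gene Snrk (0.165), the endolysosomal ion channel Tmem175 (0.167) and Nfkbie (0.209), which encodes the NF-kB inhibitor IkB-epsilon, with -2.48, -2.41 and -2.47.

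Genes too low to be tested held 3 patterns chosen after their values were seen. P2ry4, a receptor for UTP, had 7, 4 and 5 counts in the MoS2 libraries and none in the PBS libraries, a level at least 9.46-fold higher with MoS2 against a limit of 3 counts over the PBS group and with the MoS2 counts taken as exact. Acpp, a phosphatase that can make adenosine from AMP, had 8, 9 and 7 counts with MoS2 and 0, 1 and 1 with PBS, a ratio of 21.3 (counting interval 5.28 to 186). Pycard, which encodes the inflammasome adaptor ASC that RAW264.7 cells are known to lack, had 0, 2 and 0 counts with MoS2 and 1, 4 and 4 with PBS.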
